A study of Mus musculus with 6 samples.

Results

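The natriuretic peptide system was described here through 9 genes: the peptide genes Nppa, Nppb and Nppc, the receptor genes Npr1, Npr2 and Npr3, and the protease genes Corin, Furin and Mme. They were chosen by name for their roles from the 54532 genes of the count table. RNA-seq was performed on whole hearts of male C57BL/6 mice aged 3 months. Hearts from 3 α1r/rα2s/s mice (numbers 368, 369 and 370) carried the rodent Na/K-ATPase α1, which binds cardiotonic steroids (CTS) poorly. Hearts from 3 α1s/sα2s/s mice (numbers 379, 380 and 381) carried substitutions in α1 that give it high affinity for CTS. Both genotypes were homozygous for the CTS-sensitive α2 allele, the labels name no treatment, and the α1 change was in the germ line and so was not limited to cardiac myocytes.

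Atrial natriuretic peptide (ANP, from Nppa) and B-type natriuretic peptide (BNP, from Nppb) are hormones of cardiac myocytes that are released on stretch and promote salt excretion and vasodilation, while C-type natriuretic peptide (CNP, from Nppc) acts mostly near the endothelial and other cells that make it. The precursors are cut by proteases such as Corin and Furin, and the peptides act through receptors that make cyclic GMP (cGMP) or are removed by a clearance receptor and by neprilysin, the product of Mme. In the ventricle of the adult heart the mRNAs of Nppa and Nppb are widely used as signs of the fetal gene program, and whether this program returned in α1s/sα2s/s hearts was a question of the study. By RT-qPCR of left ventricles, not whole hearts, the study reported no significant change in Nppb, Myh7 or Acta1 mRNA.

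The natriuretic peptides have in common a ring closed by a disulphide bond, and the ring of BNP and that of CNP are shown because this element defines the family whose expression is compared. Each is coded by 51 bases in exon 2 of its gene (GENCODE M21 transcripts, GRCm38), printed 5′ to 3′ on the coding strand, with capitals for the bases that are the same in both. The ring of Nppb lies at chr4:147986464-147986514 (+) and that of Nppc at chr1:86669667-86669717 (-).
Nppb ring: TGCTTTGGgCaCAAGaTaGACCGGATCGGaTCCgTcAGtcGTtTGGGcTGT
Nppc ring: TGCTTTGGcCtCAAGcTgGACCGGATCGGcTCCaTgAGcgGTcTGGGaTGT
Nppb and Nppc had 40 of the 51 bases and 13 of the 17 encoded residues in common. The whole precursors are 121 residues long for Nppb and 126 for Nppc, and the ring forms the C-terminal end of the CNP precursor. The genes Nppb and Nppa are neighbours on the same strand of chromosome 4, 14.9 kb apart by their starts, whereas Nppc is on chromosome 1.

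Nppa and Nppb are both expressed in cardiac myocytes, and the bases before their starts are shown because the expression of both genes is compared here. All 9 genes had a RefSeq promoter sequence (GRCm38). The 250 bases before the Nppa start (chr4:148000472-148000721, + strand) are printed with capitals for matches to 3 short motifs.
Nppa promoter: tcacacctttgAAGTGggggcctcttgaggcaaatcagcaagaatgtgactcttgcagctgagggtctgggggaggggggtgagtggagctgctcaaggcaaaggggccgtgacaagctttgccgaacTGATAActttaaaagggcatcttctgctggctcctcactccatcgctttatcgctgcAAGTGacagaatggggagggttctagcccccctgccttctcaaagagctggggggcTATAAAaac
Its capitals mark AAGTG (the NKX2-5 motif) at 239 to 235 and at 65 to 61 bases before the start, TGATAA (the GATA motif) at 122 to 117 bases, and TATAAA (the TATA box) at 9 to 4 bases. For Nppb a stretch of 27 bases at chr4:147985795-147985821 (+ strand) is printed, in which capitals mark an M-CAT match on the opposite strand (CATTCC, read here as GGAATG) and 2 GATA matches.
Nppb stretch: GGAATGcagcTGATAAatcagAGATAA
These lie 105 to 100, 95 to 90 and 84 to 79 bases before the RefSeq start of Nppb, which is 112 bases downstream of the start in the count table's annotation, and a TATAAA lies 31 to 26 bases before it. Among 32851 RefSeq promoters, the same 250-base window held the GATA motif (TGATAA or AGATAA on either strand) in 16.6%, AAGTG on either strand in 40.7%, CATTCC on either strand in 12.6% and TATAAA on the gene's strand in 7.59%. A match is a run of letters and does not show binding.

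The total count per heart was 19309312 to 20470065, and 21234 to 22515 genes had a count in a heart. Expression is given as CPM, the counts of a gene per 1000000 counts of a library size scaled by TMM, and levels of different genes are compared only as RPKM, which is CPM per kb of gene length. Differences are log2 fold changes of α1s/sα2s/s over α1r/rα2s/s hearts from edgeR's quasi-likelihood test, with p adjusted over the 14866 genes tested. At an adjusted p under 0.05, 1.44% of these genes were called, 0.659% as lower and 0.78% as higher in α1s/sα2s/s hearts. Mitochondrially encoded genes took 23.4% to 24.4% of counts in α1r/rα2s/s hearts and 25.0% to 26.0% in α1s/sα2s/s hearts. The α1 substitutions themselves cannot be seen in counts per gene.

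Nppb mRNA was lower in α1s/sα2s/s hearts, and it was the only gene of the system called, while Nppa, the receptors, Corin and Mme overlapped between genotypes and Furin was higher in every α1s/sα2s/s heart without passing the test. Of the 9 genes, 8 had enough counts to be tested and 1 was called, against 1.44% of all genes. Their median log2 fold change was 0.05, beside -0.01 over all genes tested. The ranges of the 2 genotypes did not overlap for 1 gene that was lower and 1 that was higher, where 9.98% and 10% of all tested genes did so, 20% in all.

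**Figure D1:**
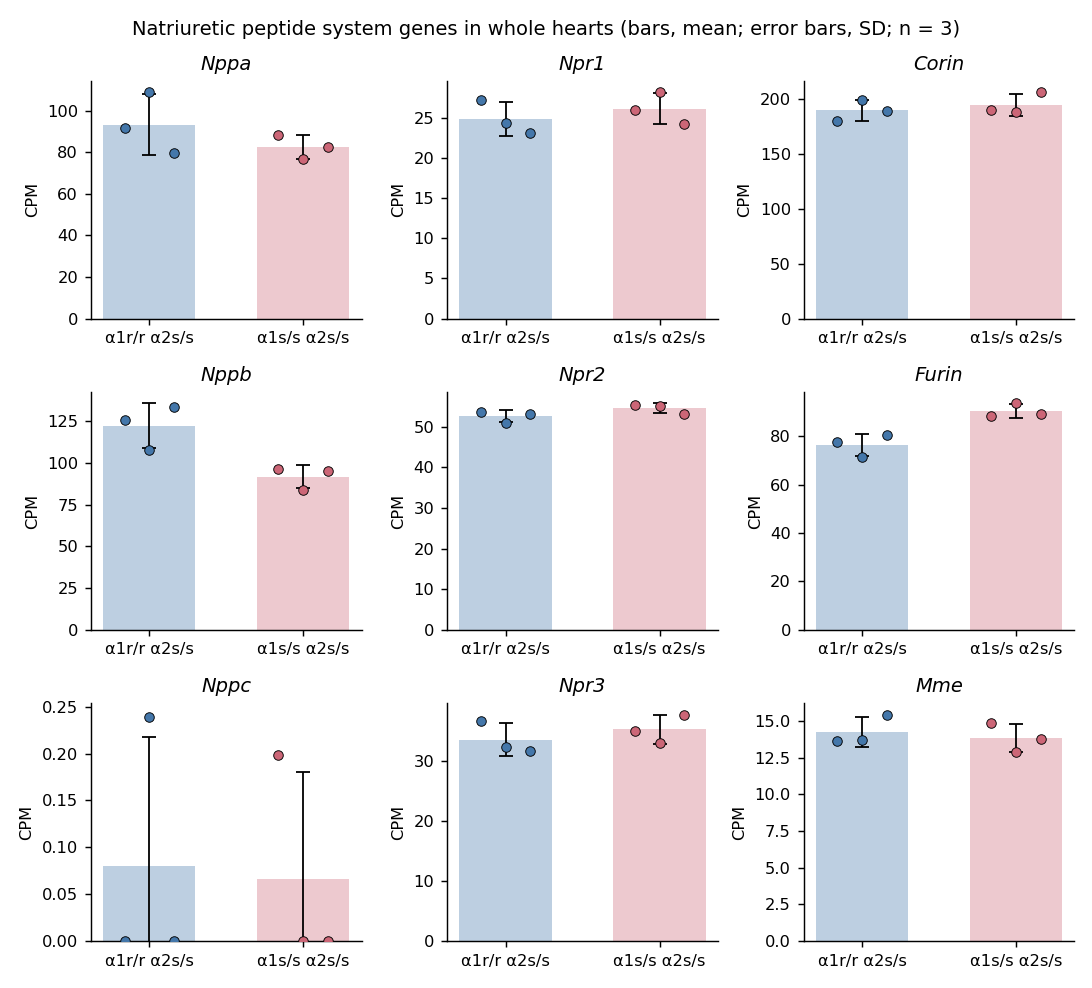
CPM of the 9 genes in each heart, by genotype, with 1 point per heart, bars for the mean and error bars for the SD (n = 3 per genotype). Each axis starts at 0 CPM, and the points of the genotypes are apart for Nppb (107 to 134 against 83.9 to 96.2 CPM) and Furin (71.5 to 80.5 against 88.2 to 93.5 CPM).

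Nppb was measured at 126, 107 and 134 CPM in α1r/rα2s/s hearts 368, 369 and 370. In α1s/sα2s/s hearts 379, 380 and 381 it was at 96.2, 83.9 and 95.2 CPM. Every α1s/sα2s/s heart was thus below every α1r/rα2s/s heart. The means were 122 ± 13.4 and 91.8 ± 6.87 CPM (SD, n = 3 each), from 2250 to 2658 reads per heart in one genotype and 1594 to 1938 in the other. The level fell by 24.9%, a log2 fold change of -0.41 (SE 0.09, 95% interval -0.60 to -0.23, edgeR adjusted p = 0.0303). DESeq2, which called 3.56% of the genes it tested and 1.37% as lower, gave Nppb an adjusted p of 0.0011. Ranked by p, Nppb was number 127 of the 14866 genes. The call depended on which hearts were included. Under edgeR it was kept without heart 369 (adjusted p = 0.00899) and lost without heart 368 (0.119), 370 (0.0902), 379 (0.0609), 380 (0.122) or 381 (0.0574), with log2 fold changes from -0.49 to -0.34.

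Nppa, the ANP gene, was at 91.4, 109 and 79.5 CPM in α1r/rα2s/s hearts and at 88.1, 76.6 and 82.7 CPM in α1s/sα2s/s hearts. The genotypes overlapped, since heart 370 was below hearts 379 and 381. The means of 93.2 ± 14.7 and 82.5 ± 5.72 CPM (SD, n = 3 each) gave a log2 fold change of -0.18 with an interval of -0.39 to 0.03 (edgeR adjusted p = 0.432). The lower end of this interval is close to the estimate for Nppb, so the test does not show that Nppa was the same in both genotypes. The estimate moved with single hearts, from -0.05 without heart 369 (edgeR adjusted p = 0.900) to -0.27 without heart 370 (edgeR adjusted p = 0.180). Per length, the log2 ratio of Nppb to Nppa in RPKM was 0.61, 0.13 and 0.90 in α1r/rα2s/s hearts and 0.27, 0.28 and 0.35 in α1s/sα2s/s hearts. All 6 hearts had more Nppb than Nppa by this measure, heart 369 with the smallest excess, and the ratio differed by -0.24 between genotypes (exact permutation test, two-sided p = 0.4). With 3 hearts per genotype that test cannot give a p under 0.1. Nppa and Nppb added together came to 213 to 217 CPM in α1r/rα2s/s hearts and 160 to 184 CPM in α1s/sα2s/s hearts, without overlap (exact permutation test, two-sided p = 0.1).

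Nppc, which codes for CNP, was close to absent from these libraries. It had 5 reads in heart 369, 4 in heart 379 and none in the other 4 hearts. A count of 0 allows a level of up to 0.143 to 0.158 CPM per heart (3 counts, counting error only), so no difference in Nppc could be measured at this depth, and it was not tested.

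ANP mRNA is most abundant in atrial myocytes, so markers of atrial tissue are given beside the peptide genes. The summed level of 8 atrial myocyte markers (Myl7, Myl4, Sln, Bmp10, Dkk3, Mybphl, Stard10 and Gja5) was 161, 209 and 126 CPM in α1r/rα2s/s hearts and 131, 107 and 125 CPM in α1s/sα2s/s hearts. Heart 369 had the highest sum and heart 380 the lowest, and the genotypes overlapped. The difference was -44.2 CPM (exact permutation test, two-sided p = 0.2), and -22.4 CPM without heart 369. All 8 markers had lower estimates in α1s/sα2s/s hearts, as had 7664 of the 14866 genes tested, and none was called in the main edgeR fit. Their median log2 fold change was -0.42, with Myl7, the atrial regulatory light chain, at -0.55 (edgeR adjusted p = 0.0799, DESeq2 adjusted p = 0.0189) and Myl4, the atrial essential light chain, at -0.57 (edgeR adjusted p = 0.0893, DESeq2 adjusted p = 0.258). Without heart 370, edgeR called Myl7 and Myl4 (adjusted p = 0.0406 and 0.00992), and without any other single heart it called neither. Without heart 369 they were at -0.36 and -0.33 (edgeR adjusted p = 0.305 and 0.314). With all hearts, edgeR called both with no filter beyond 1 count (adjusted p = 3.29e-05 and 3.46e-07) and neither with its robust prior (0.138 and 0.366). Bmp10, a right atrial marker, had no read in hearts 370 and 381 and reached 7.40 CPM in heart 369. In bulk tissue, fewer cells of a type and less RNA per cell cannot be told apart.

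Nppa followed the order of the atrial sum at its ends, with heart 369 highest and heart 380 lowest in both. Heart 380 was also the lowest in Nppb, but heart 369 had the lowest Nppb of the α1r/rα2s/s hearts. Heart 370 had an atrial sum of 126 CPM, close to hearts 379 and 381 with 131 and 125 CPM, and had 134 CPM of Nppb where those hearts had 96.2 and 95.2 CPM. These hearts were set side by side after the values were seen. Without heart 369, the α1r/rα2s/s heart with the highest atrial sum, the log2 fold change of Nppb was -0.49. Ratios of CPM to the atrial sum are used here only to compare hearts, not genes. The log2 ratio of Nppb to the atrial sum was -0.36, -0.96 and 0.09 in α1r/rα2s/s hearts and -0.44, -0.35 and -0.40 in α1s/sα2s/s hearts, with a difference of 0.01 between genotypes (exact permutation test, two-sided p = 0.9). For Nppa the same ratio differed by 0.26 (exact permutation test, two-sided p = 0.1), and all 3 α1s/sα2s/s hearts were above the α1r/rα2s/s hearts. The part of atrial tissue in the difference of Nppb was not tested.

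**Figure D2:**
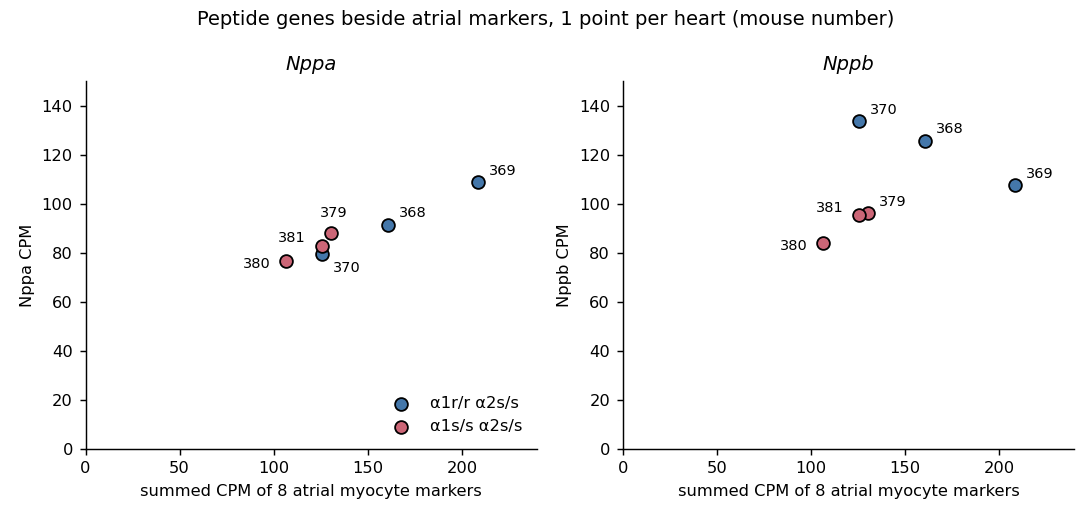
CPM of Nppa (left) and Nppb (right) against the summed CPM of 8 atrial myocyte markers, with 1 point per heart labelled by mouse number and coloured by genotype, all axes from 0. Heart 370 sits close to heart 381 in atrial sum (126 and 125 CPM) and has 134 CPM of Nppb against 95.2 CPM. Heart 369 has the highest atrial sum (209 CPM) and 107 CPM of Nppb. The hearts named were chosen after the values were seen.

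The summed levels of the other marker lists overlapped between genotypes except for 1, and the main edgeR fit called none of their genes. Ventricular myocyte markers (Myl2, Myl3, Irx4 and Hey2) summed to 9839 to 10823 CPM in α1r/rα2s/s hearts and to 10427 to 11704 CPM in α1s/sα2s/s hearts. Ranges also overlapped for markers of endocardium (138 to 168 against 138 to 147 CPM), endothelium (919 to 1074 against 791 to 981 CPM), fibroblasts (765 to 865 against 761 to 847 CPM), smooth muscle (104 to 145 against 99.6 to 112 CPM) and pericytes (1251 to 1318 against 1139 to 1285 CPM). Blood and surface cells were covered by markers of erythroid cells (536 to 1272 against 401 to 3187 CPM), neutrophils (5.02 to 9.65 against 1.30 to 5.47 CPM), lymphocytes (3.72 to 5.06 against 1.94 to 7.15 CPM) and epicardium (5.54 to 8.31 against 4.30 to 7.30 CPM). Adipocyte markers alone were apart, at 0.754 to 1.72 and 1.84 to 3.77 CPM, from 1 to 28 reads per gene and heart. Of the 3 adipocyte genes, Adipoq and Cidec overlapped between genotypes and Plin1 did not, where 20% of all tested genes did not. Within these lists, all 4 smooth muscle, all 4 pericyte and all 3 tested neutrophil markers had lower estimates in α1s/sα2s/s hearts. So did all 3 tested lymphocyte and the 2 tested epicardial markers. All 5 erythroid and all 3 adipocyte markers had higher estimates. Single genes chosen after their values were seen were the endothelial receptor Kdr (log2 fold change -0.50, edgeR adjusted p = 0.0694), the collagen gene Col1a1 (-0.41, edgeR adjusted p = 0.0743, DESeq2 adjusted p = 0.0122), smooth muscle actin Acta2 (-0.45, edgeR adjusted p = 0.118, DESeq2 adjusted p = 0.0345) and the neutrophil gene S100a8 (-2.34, edgeR adjusted p = 0.0606). Of these, Kdr, Col1a1 and S100a8 did not overlap between genotypes. S100a8 had only 18 to 33 reads per heart in α1r/rα2s/s hearts and 1 to 9 in α1s/sα2s/s hearts. The neutrophil markers S100a9 and Csf3r overlapped between genotypes. Other members of the endothelial and fibroblast lists differed in direction. Of the 6 endothelial markers, 4 had lower and 2 had higher estimates (Tie1 at 0.12 and Pecam1 at 0.002). The 6 fibroblast markers were also split, with 4 lower and 2 higher (Pdgfra at 0.14 and Dcn at 0.06). The part of these cell types in the difference of Nppb was not tested. With globin and mitochondrially encoded genes left out of the libraries, the log2 fold change of Nppb was -0.41 (edgeR adjusted p = 0.0272).

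The receptor genes were at similar levels in both genotypes. Npr1 codes for the guanylyl cyclase receptor of ANP and BNP. It was at 27.2, 24.4 and 23.1 CPM in α1r/rα2s/s hearts and at 26.0, 28.1 and 24.2 CPM in α1s/sα2s/s hearts, with a log2 fold change of 0.07 (95% interval -0.14 to 0.28, edgeR adjusted p = 0.806). Npr2 codes for the guanylyl cyclase receptor of CNP. Its values were 53.6, 50.9 and 53.2 CPM against 55.4, 55.0 and 53.1 CPM, with a log2 fold change of 0.05 (95% interval -0.10 to 0.21, edgeR adjusted p = 0.795). Npr3 codes for the clearance receptor, which takes up all 3 peptides. Npr3 was at 36.8, 32.3 and 31.7 CPM and at 35.1, 33.0 and 37.8 CPM, with a log2 fold change of 0.07 (95% interval -0.13 to 0.27, edgeR adjusted p = 0.780). All 3 receptors overlapped between genotypes, and their intervals leave room for changes of up to 0.28 on the log2 scale in the upward direction. The log2 ratio of Npr3 to Npr1 in RPKM, clearance over signalling receptor, averaged -0.54 in both genotypes and differed by 0.00 (exact permutation test, two-sided p = 1). It ranged from -0.56 to -0.51 in α1r/rα2s/s hearts and from -0.74 to -0.33 in α1s/sα2s/s hearts.

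Among the proteases, Corin, the cell-surface enzyme of cardiac myocytes that cuts the ANP precursor, was at 180, 200 and 190 CPM in α1r/rα2s/s hearts and at 190, 188 and 206 CPM in α1s/sα2s/s hearts. Its log2 fold change was 0.04 (95% interval -0.11 to 0.19, edgeR adjusted p = 0.855), and the genotypes overlapped. Furin, a proprotein convertase of the secretory pathway that can cut the BNP precursor among many substrates, was at 77.5, 71.5 and 80.5 CPM and at 88.2, 93.5 and 89.1 CPM. Every α1s/sα2s/s heart was above every α1r/rα2s/s heart. The means were 76.5 ± 4.59 and 90.2 ± 2.84 CPM (SD, n = 3 each), and the log2 fold change of 0.24 (95% interval 0.09 to 0.39) had an edgeR adjusted p of 0.129 and a DESeq2 adjusted p of 0.0648. Furin passed the threshold under none of the 13 alternatives run. Mme, the gene of neprilysin, which degrades natriuretic peptides, was at 13.6, 13.7 and 15.4 CPM and at 14.8, 12.9 and 13.7 CPM, with a log2 fold change of -0.04 (95% interval -0.29 to 0.21, edgeR adjusted p = 0.912).

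Per length of gene, Nppb and Nppa were the most abundant of the system and Nppc the least. Nppb ranged from 107 to 171 RPKM and Nppa from 88.6 to 126 RPKM over the 6 hearts, and these ranges overlapped. Corin followed at 33.4 to 38.2 RPKM, then Npr2 at 10.9 to 11.9, Furin at 7.79 to 10.2, Npr1 at 4.82 to 5.88, Npr3 at 3.38 to 4.02, Mme at 1.12 to 1.34 and Nppc at 0 to 0.229 RPKM. No neighbours in this order other than Nppb and Nppa overlapped. Gene length here is that given in the count table, which covers all annotated exons and not the transcript used in the heart.

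**Figure D3:**
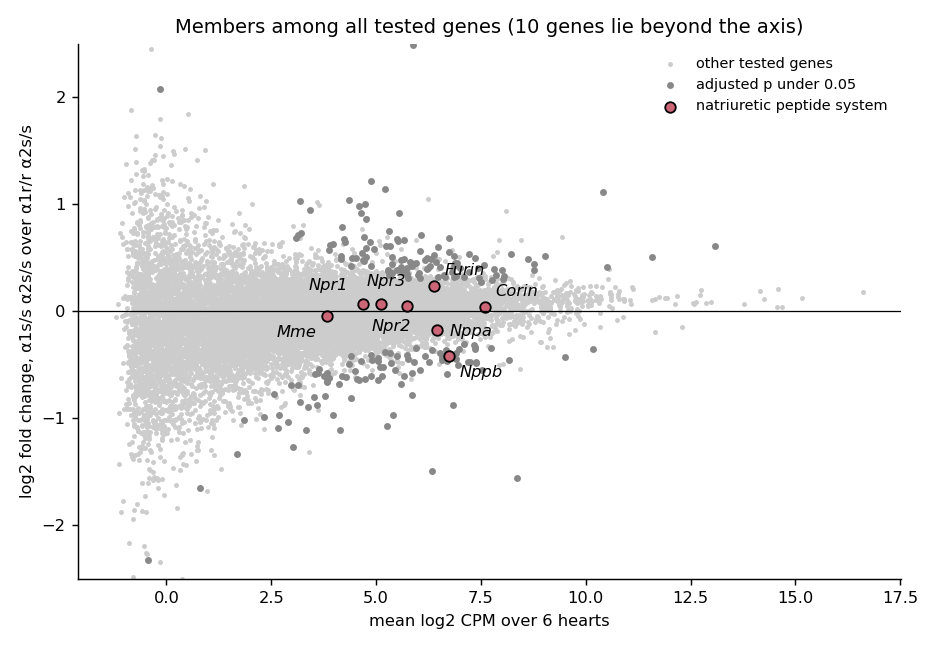
Log2 fold change of α1s/sα2s/s over α1r/rα2s/s hearts against mean log2 CPM for all 14866 tested genes, with the 8 tested genes of the natriuretic peptide system in colour and genes with an adjusted p under 0.05 in dark grey. Of the 8, 6 sit within 0.18 of 0 on the log2 scale, Furin is at 0.24 and Nppb is at -0.41. Another 10 genes lie beyond the axis.

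Nppb and Nppa lie beside each other, and the genes around them were read for the same contrast. Of the genes with a start within 100 kb of Nppb or Nppa, 12 are given here, themselves included, and 6 of these were tested. Nppb, around which the region was chosen, was the only one of the 6 called, against 1.44% of all genes. Upstream of Nppb, Plod1, a collagen lysyl hydroxylase, had a log2 fold change of -0.19 (edgeR adjusted p = 0.323) and 2510039O18Rik one of 0.10 (edgeR adjusted p = 0.636). Beyond Nppa, the chloride transporter gene Clcn6 was at -0.15 and Agtrap, whose product binds the angiotensin receptor, at -0.04, with edgeR adjusted p of 0.703 and 0.875. The antisense gene Gm13054 overlaps Nppa and had 0 to 10 reads per heart. How strand was treated in counting is not given in the sources used here, so reads of Nppa and of this antisense gene may not be separated. Gm13156, Gm13207, Chchd2-ps, Gm13201 and Draxin had 0 to 9 reads per heart and were not tested.

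**Figure D4:**
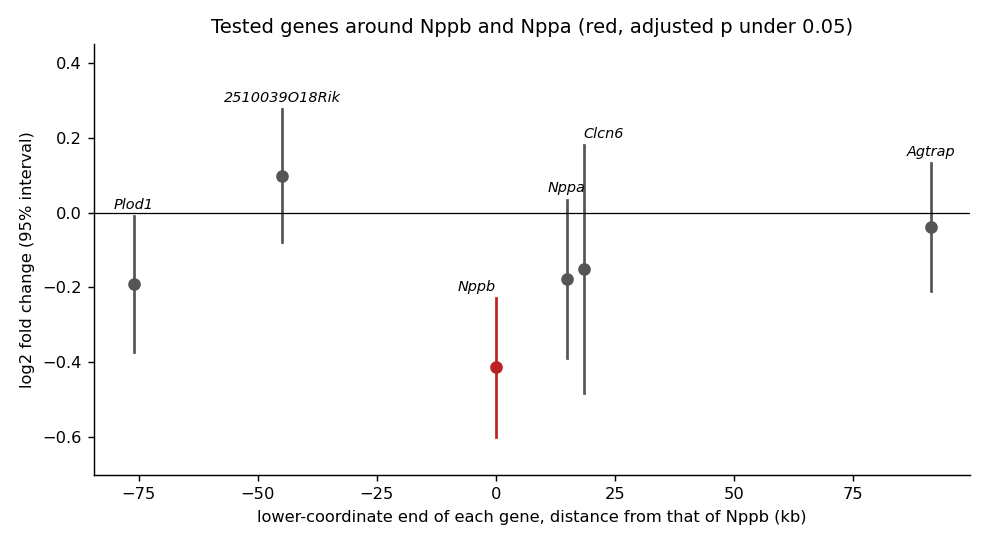
Log2 fold change with its 95% interval for 6 tested genes around Nppb and Nppa, placed by the distance of each gene's lower-coordinate end from that of Nppb in kb. The interval of Nppb (-0.60 to -0.23) is the only one drawn in red, for an adjusted p under 0.05.

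The genes most like Nppa and Nppb over the 6 hearts were found by the root mean square difference of log2 CPM, each gene centred on its own mean. For Nppa these were Epb41l2 (0.043), Prdm4 (0.048) and Slc43a2 (0.052) among 12675 genes that varied enough to be compared. For Nppb they were Crocc (0.052), Zmat1 (0.056) and Alg3 (0.060) among 10111 genes. Nppa and Nppb differed from each other by 0.255 in this measure. The median difference of the compared genes was 0.255 from Nppa and 0.337 from Nppb. None of the 6 like genes was called by edgeR. With 6 hearts, resemblance of this size is a description only.

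Other genes of the pathway were read from a list of 28, of which 24 were tested. One was called, Ide, against 1.44% of all genes, and 4 had an unadjusted p under 0.05, where 14.5% of all genes did. Estimates were lower in α1s/sα2s/s hearts for 18 of the 24, with a median log2 fold change of -0.11. Ide codes for insulin-degrading enzyme, a protease that also degrades natriuretic peptides. Its level was 141, 132 and 166 CPM in α1r/rα2s/s hearts and 98.6, 110 and 102 CPM in α1s/sα2s/s hearts, without overlap. Ide fell by 0.50 on the log2 scale (SE 0.09, 95% interval -0.68 to -0.31, edgeR adjusted p = 0.0110), and it stayed past the threshold under all 13 alternatives, including without each heart in turn. Besides Ide, the list of other peptide handling genes held Pcsk5, Pcsk6, Dpp4 and Ece1, none of which was called, and Mmel1 and Ostn, which had too few reads to be tested. Dpp4, a dipeptidyl peptidase that trims BNP, was chosen after its values were seen. It was at 6.02, 7.12 and 6.98 CPM against 4.02, 4.79 and 4.25 CPM, without overlap (log2 fold change -0.62, edgeR adjusted p = 0.117).

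Downstream of the receptors, none of the genes that make, break or respond to cGMP was called in the main edgeR fit. The soluble guanylyl cyclase and nitric oxide synthase genes (Gucy1a1, Gucy1a2, Gucy1b1, Nos1 and Nos3) all had lower estimates, with a median log2 fold change of -0.14 and a smallest adjusted p of 0.528. Of the 9 phosphodiesterase genes, 7 had lower estimates, with a median of -0.14 and a smallest adjusted p of 0.406. Pde5a, Pde9a and Pde2a are among them, and each was under 10 CPM on average. Of the 7 genes that respond to cGMP, 5 were tested and the median was -0.09. Rgs2, a regulator of G protein signalling that the cGMP-dependent kinase activates, was chosen after its values were seen. It was at 30.7, 41.5 and 21.8 CPM in α1r/rα2s/s hearts and at 44.8, 43.9 and 47.3 CPM in α1s/sα2s/s hearts, without overlap (log2 fold change 0.53, edgeR adjusted p = 0.125, DESeq2 adjusted p = 0.0305). With 1 heart left out, edgeR called Rgs2 only without heart 369 (adjusted p = 0.00594). Over these 6 fits the adjusted p reached 0.271, and the log2 fold change ranged from 0.33 to 0.79.

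**Figure D5:**
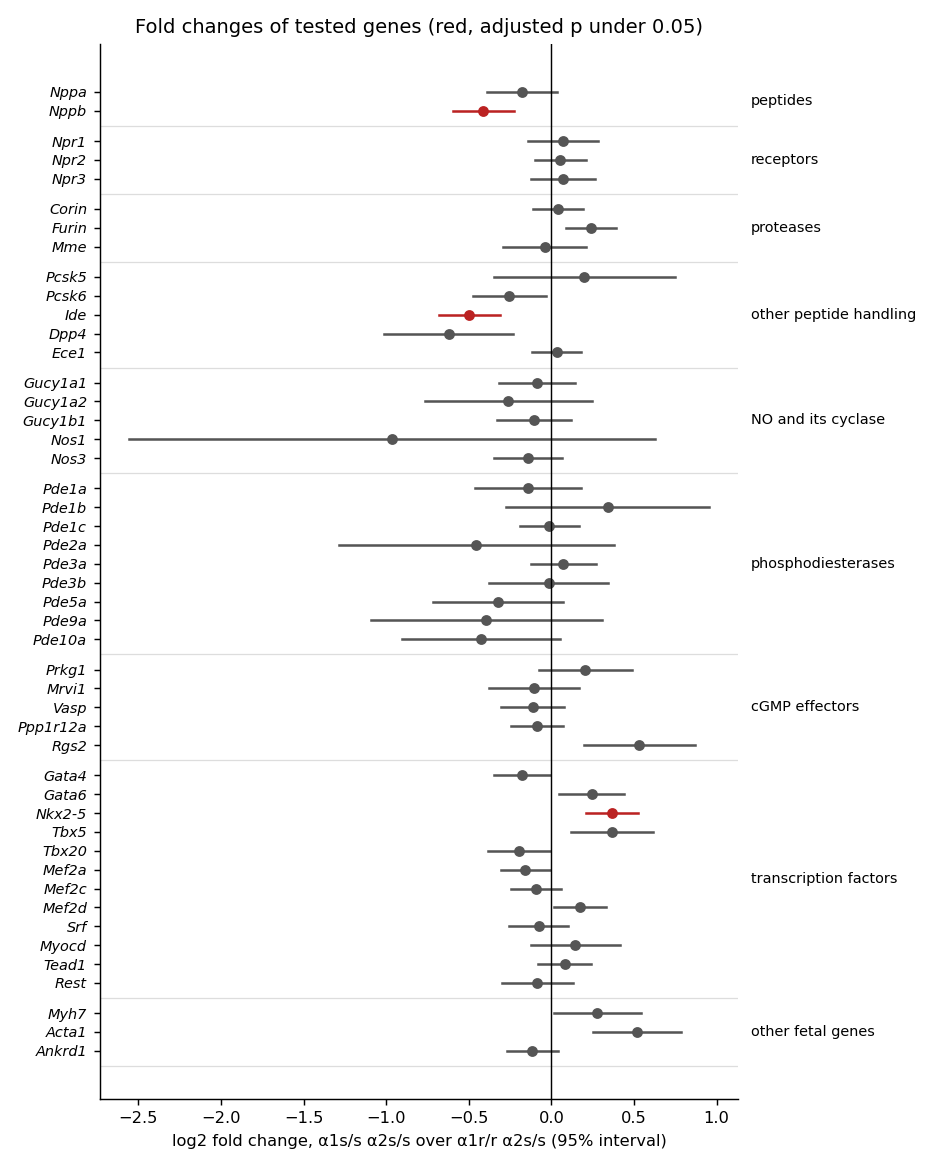
Log2 fold change of α1s/sα2s/s over α1r/rα2s/s hearts with its 95% interval for the tested genes of the system, of the wider pathway, of the transcription factors and of other fetal genes. The 3 genes in red have an adjusted p under 0.05: Nppb at -0.41, Ide at -0.50 and Nkx2-5 at 0.37.

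Transcription factors known to act on the Nppa and Nppb promoters were read as a list of 12, all tested. Nkx2-5, the homeobox factor whose motif AAGTG is marked in the Nppa promoter above, was at 42.6, 44.4 and 41.4 CPM in α1r/rα2s/s hearts and at 54.3, 56.8 and 54.6 CPM in α1s/sα2s/s hearts. No AAGTG was found on either strand in the 250 bases before the RefSeq start of Nppb. The genotypes did not overlap, and Nkx2-5 rose by 0.37 on the log2 scale (SE 0.07, 95% interval 0.21 to 0.52, edgeR adjusted p = 0.0276, DESeq2 adjusted p = 0.0031). The call was lost without any 1 of the 6 hearts, with edgeR adjusted p from 0.0550 to 0.0992, and the log2 fold change stayed between 0.35 and 0.40. The other 11 factors were not called, so 1 of the 12 was, against 1.44% of all genes. Including Nkx2-5, 7 of the 12 had an unadjusted p under 0.05, where 14.5% of all genes did, with Gata6, Tbx5 and Mef2d estimated higher and Gata4, Tbx20 and Mef2a lower. The median log2 fold change of the list was 0.00.

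Of the other genes of the fetal program, Myh7, the slow myosin heavy chain, was at 234, 305 and 292 CPM in α1r/rα2s/s hearts and at 276, 322 and 408 CPM in α1s/sα2s/s hearts (log2 fold change 0.28, edgeR adjusted p = 0.319), with overlap. The estimate for Myh7 was 0.11 without heart 381, 0.17 without heart 368 and 0.40 without heart 379. Acta1, skeletal α-actin, was at 156, 174 and 217 CPM and at 312, 253 and 219 CPM, which did not overlap, though hearts 370 and 381 were nearly equal. Its log2 fold change was 0.52 (edgeR adjusted p = 0.0548, DESeq2 adjusted p = 0.158). With 1 heart left out, Acta1 passed the threshold only without heart 370 (edgeR adjusted p = 0.0176) or heart 381 (0.0234). Without any other single heart it did not pass (edgeR adjusted p from 0.104 to 0.211). Over these 6 fits the log2 fold change of Acta1 ranged from 0.37 to 0.67. Ankrd1, a stretch-responsive ankyrin repeat protein of myocytes, was at 1015, 999.5 and 1069 CPM and at 991, 979 and 876 CPM, with every α1s/sα2s/s heart below every α1r/rα2s/s heart (log2 fold change -0.12, edgeR adjusted p = 0.503). In the main edgeR fit none of the 3 was called, and 2 had higher and 1 lower estimates. With all hearts and no filter beyond 1 count, edgeR called Acta1 (adjusted p = 5.8e-09) and Myh7 (0.0139). With globin and mitochondrially encoded genes left out it called Acta1 (0.0459), and with its robust prior it did not (0.259).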

How the data were processed

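Total RNA from the 6 hearts was sequenced by a company, and per the labels fastp, STAR, featureCounts and the build mm10 were used. Versions, the annotation release and strand setting are not given in the sources used here. The authors deposited raw counts per gene, which were analysed as deposited. Their own DESeq2 comparison (means, fold changes and p-values) was not used. Some single genes and sequences are not reported here.

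Counts were analysed in R 4.3.3 with edgeR 4.0.16 (TMM, filterByExpr with a minimum count of 10 and total of 15, quasi-likelihood test of genotype, Benjamini-Hochberg over all 14866 genes, threshold 0.05). log2 CPM used a prior count of 2. The biological coefficient of variation was 11.1%. Gene coordinates and identifiers of the 9 genes were the same in the count table and GENCODE M21. Single values were compared by exact two-sided permutation tests. Hearts of a genotype came from separate mice and differed by more than counting noise (mean chi-square per gene of 7.39 to 17.0 between hearts of one genotype). The labels give no date or batch of extraction or sequencing, so a batch that separates the genotypes and the genotypes themselves cannot be told apart.

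The genes and lists were chosen with earlier results of these data known. All 9 genes were named, with list genes called in edgeR (up to 4 per list), Myh7 and Acta1, genes within 100 kb of Nppa or Nppb, and for each of these the 3 tested genes most like it among those with at least 0.5 times its SD over hearts. Alternatives were DESeq2 1.42.0, RLE and upper-quartile factors, other filters, libraries without globin and mitochondrially encoded genes, edgeR's robust prior, and leaving out each heart. The edgeR and DESeq2 tests were checked on simulated data.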

Additional observations from a re-analysis of the deposited data

How the results depend on the processing

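Of the 13 alternatives, none changed the direction of Nppb, Nppa, Furin, Npr1, Npr2, Npr3 or Ide. The number of genes called, 214 (116 higher, 98 lower), was 400 by DESeq2, 618 with no filter beyond 1 count, and 80 to 158 with 1 heart left out. Of the 9 genes of the system, 1 was called under every alternative that kept all hearts, and 0 to 1 with 1 heart left out. Estimates near 0 changed sign: with 1 heart left out, log2 fold changes ranged from -0.0040 (without heart 381) to 0.079 for Corin, from -0.093 to 0.025 (without heart 370, and 0.012 without heart 380) for Mme, from -0.079 to 0.0011 (without heart 369) for Agtrap and from -0.27 to 0.0075 (without heart 370) for Clcn6. The cause was not tested. Calls appeared under some alternatives for Acta1 (4 of 13), Rgs2 and Myl7 (3 each), Myl4 (2), Myh7 and Tbx5 (1 each). No paired analysis was possible because the labels give no replicate numbers that the genotypes share. At this depth Nppc, Mmel1 and Ostn could not be compared.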
